A study of Mus musculus with 14 samples.

Results

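Fatty acid oxidation was followed through 41 genes of the mitochondrial and peroxisomal pathways in the kidneys of mice with and without complement factor B (Cfb) and with and without diabetes. The genes were taken by symbol from a fixed list, and all 41 of 41 were found in each of the 14 mice, among 21878 genes per mouse. Every one of them reached 0.1 FPKM in 3 mice or more, as did 14912 genes in all. FPKM scales the sequenced fragments of a gene by transcript length and by sequencing depth, so that levels of different genes can be set side by side. Of the 41 genes, 25 were grouped with the mitochondria, 11 with the peroxisomes, and 1 with ketone metabolism, and 4 sense lipids or switch fuels.

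Cells of the proximal tubule reabsorb most of what the glomerulus filters and burn fatty acids rather than glucose to pay for it. A fatty acid is first joined to coenzyme A, long chains are passed into mitochondria as acylcarnitines, and each turn of beta-oxidation then removes a pair of carbons as acetyl-CoA through a dehydrogenase, a hydratase, a second dehydrogenase, and a thiolase. Peroxisomes run a similar cycle on very long, branched, and dicarboxylic chains, with oxidases that make hydrogen peroxide in place of the first dehydrogenase. Many of these genes are targets of the nuclear receptor PPARα, which binds fatty acids.

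The mice were male and on a C57BL/6J background, and RNA was taken from the kidney. WT diabetic mice (n = 4) and Cfb-/- diabetic mice (n = 4) had a high-fat diet with 60% of calories from fat and streptozotocin (STZ), a toxin of the insulin-producing beta cells, at 60 mg/kg for 5 days. WT control mice (n = 3) and Cfb-/- control mice (n = 3) had chow with 10% of calories from fat and citrate buffer. The labels give 34 weeks for all groups without a starting point. By the study's methods the mice were matched for age, the diabetic groups had 4 weeks of the high-fat diet before STZ, and kidneys were taken weeks later. The labels also repeat the STZ text for the controls and call the deletion a knockdown, whereas the study's methods describe a knockout in the whole animal. In this design diet and STZ change together, so that their effects cannot be told apart.

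Cfb itself was low in both knockout groups, with 1.13 to 1.43 FPKM under diabetes and 2.05 to 2.22 FPKM without. The WT diabetic mice held 56.7 to 81.9 FPKM and the WT controls 62.2 to 131. All values of a mouse summed to between 330246 and 488196 FPKM, and how many reads lie behind them is not known. A single transcript, Kap, the androgen-regulated protein of the proximal tubule, made up 10.2 to 13.9% of this sum in control mice and 1.98 to 4.60% in diabetic mice. The 10 markers of the proximal tubule were all above 0 and summed to 3125 to 3619 FPKM in control mice and 1170 to 2007 in diabetic mice. Not all of them were lower with diabetes. The levels of Aqp1 and Cubn overlapped between diabetic and control mice in both genotypes, and that of Lrp2 in WT mice. Each of the other markers lay lower in diabetic mice without overlap. Aqp1 had 249 to 331 FPKM in WT control and 263 to 485 in WT diabetic mice. Macrophage markers (4 genes) summed to 23.2 to 34.8 FPKM in control and 70.9 to 119 in diabetic mice. Injured tubule markers (4 genes) summed to 3.495 to 6.64 FPKM in control and 49.7 to 138 in diabetic mice. The first and second Cfb-/- diabetic mice stood apart with the lowest proximal tubule sums, 1170 and 1258 FPKM, and the highest macrophage sums, 114 and 119.

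In the WT control kidney the most abundant members per length were Acsm2, a medium-chain acyl-CoA synthetase, with a mean of 588 FPKM, and Etfb, the beta subunit of the electron transfer flavoprotein, with 483 FPKM. Pecr, a peroxisomal enoyl-CoA reductase, had 388 FPKM, and Cat, the catalase that removes hydrogen peroxide, had 371 FPKM. The medium-chain dehydrogenase Acadm followed at 311 FPKM and the hydroxyacyl-CoA dehydrogenase Hadh at 309 FPKM, and these 2 neighbours did not differ beyond their spread. At the other end stood Cpt1b at 5.16 FPKM, Pdk4 at 4.04 FPKM, and the liver-type fatty acid binding protein Fabp1 at 1.02 FPKM. Together the members made up 0.949 to 1.37% of all FPKM of a mouse.

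The first comparison asked how these genes differed between diabetic and control kidneys. In WT mice 10 members rose and 7 fell at an adjusted p under 0.05, while 24 did not pass the test. Among all genes tested 36.2% rose and 9.97% fell by the same rule. In Cfb-/- mice 8 members rose and 9 fell, against 27.4% and 6.40% of all genes. Called in the same direction in both genotypes were Cpt1b, Slc25a20, Hadha, Acot1, Acot2, Pdk4, Ucp2, and Angptl4, which rose, and Acads, Hadh, Acsm1, Acsm2, and Pecr, which fell. With the study's rule, which asks for an unadjusted P below 0.05 and a change of more than 2-fold either way, 5 members rose and 3 fell in WT mice (15.6% and 1.82% of all genes), and 4 rose and 3 fell in Cfb-/- mice (13.3% and 1.66%).

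The median log2 fold change over the members was 0.08 in WT mice and -0.10 in Cfb-/- mice, and over all genes it was 0.29 and 0.22. Below these medians of all genes, which by construction split them at 50.0%, lay 27 of 41 members in WT mice and 32 of 41 in Cfb-/- mice. The 25 mitochondrial genes had medians of 0.02 in WT and -0.12 in Cfb-/- mice, the 11 peroxisomal genes 0.02 and -0.21, and the 4 fuel-sensing genes 1.59 and 1.35. Median-ratio scaling, which divides each mouse by its median ratio to a common reference, moved the median of all genes in WT mice from 0.29 to 0.03 and that of the members from 0.08 to -0.20. Without the third control mouse of the genotype the members' median was -0.01 in WT and 0.01 in Cfb-/- mice. With each mouse scaled to the same total without Kap it was 0.26 in WT and -0.04 in Cfb-/- mice, against 0.45 and 0.28 over all genes. Members called with that scaling were 13 higher and 5 lower in WT and 8 higher and 7 lower in Cfb-/- mice. Quantile normalization gave members' medians of 0.20 in WT and -0.07 in Cfb-/- mice, against -0.05 over all genes in each. Median-ratio scaling took the share of higher among all called genes from 78.4% to 50.3% in WT mice. In Cfb-/- mice the share went from 81.0% to 56.8%. Members called with median-ratio scaling were 7 higher and 13 lower in WT mice and 5 higher and 15 lower in Cfb-/- mice. Over all genes it called 3391 higher and 3347 lower in WT mice, and 2761 and 2101 in Cfb-/- mice. The 10 higher and 7 lower calls in WT mice and the 8 and 9 in Cfb-/- mice kept their direction under each of the 16 alternatives.

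**Figure D1:**
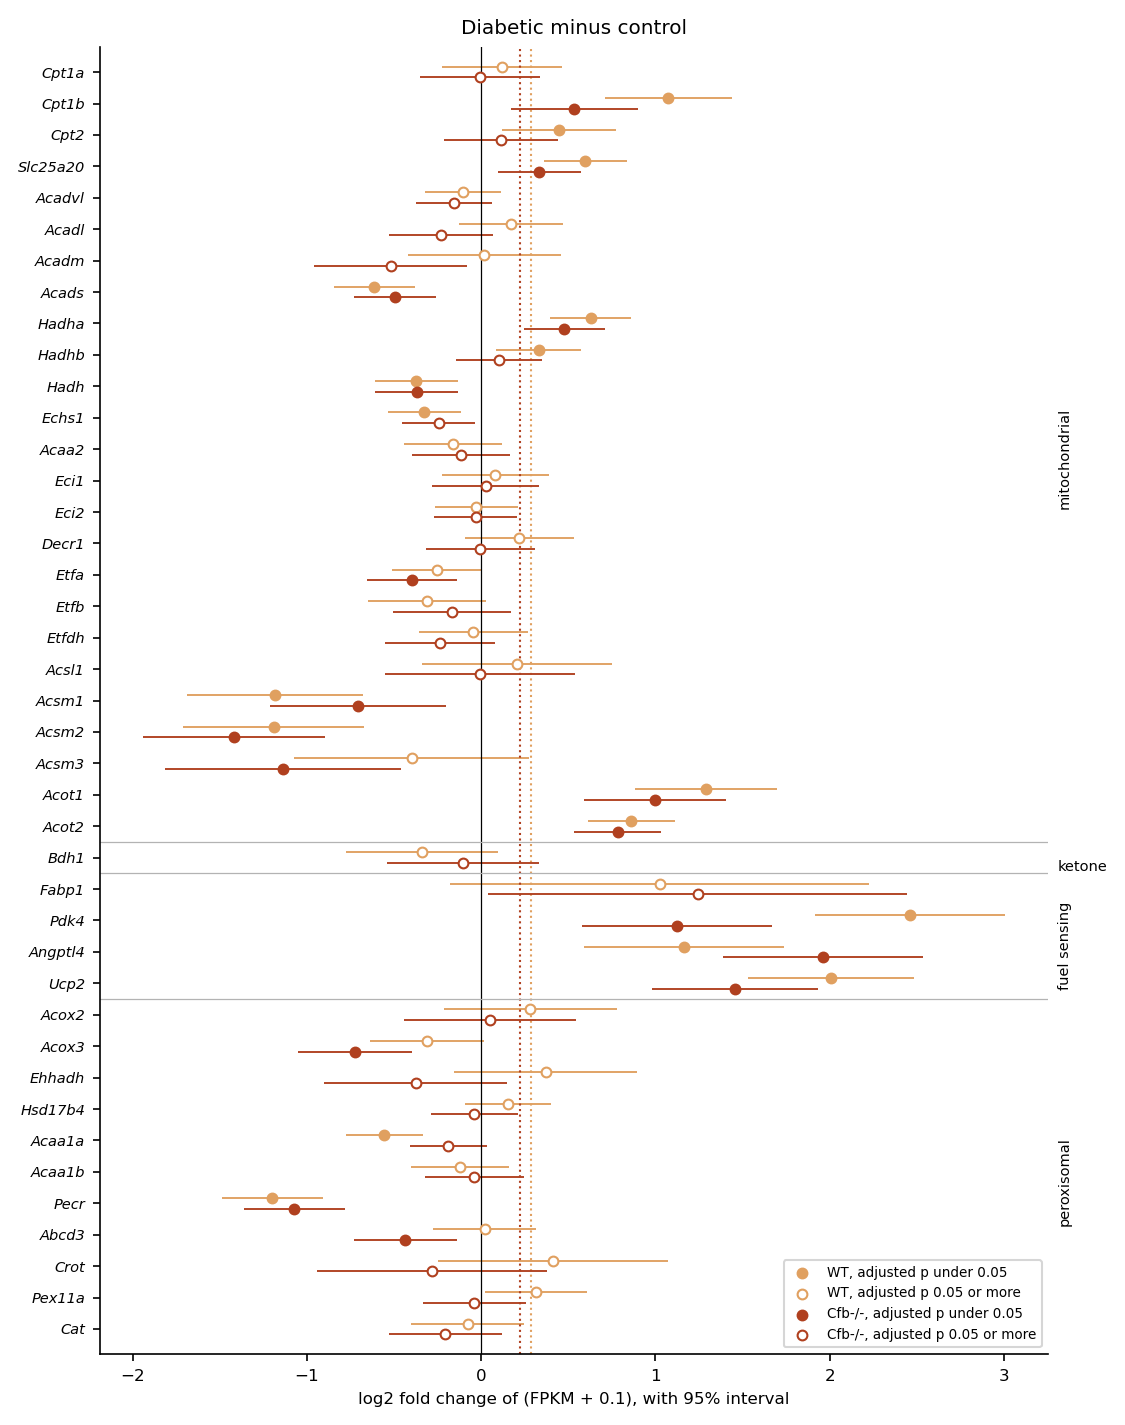
Log2 fold change on the log2(FPKM + 0.1) scale in diabetic against control mice for the 41 genes (rows), in WT and in Cfb-/- mice, with 95% intervals from limma. Filled points passed an adjusted p under 0.05, and dotted lines mark the median of all genes, 0.29 in WT and 0.22 in Cfb-/- mice. Pdk4 in WT and Angptl4 in Cfb-/- mice lie farthest to the right, and Pecr in WT and Acsm2 in Cfb-/- mice farthest to the left.

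Entry into mitochondria came first. Cpt1a and Cpt1b, the liver-type and muscle-type carnitine palmitoyltransferases of the outer membrane, set the rate at which long chains enter. Cpt1b had 5.57, 5.36, and 4.54 FPKM in the WT control mice and 9.13, 12.7, 11.0, and 11.1 FPKM in the WT diabetic mice. It had 6.41, 5.40, and 9.98 FPKM in the Cfb-/- control mice and 10.2, 10.5, 10.1, and 10.1 FPKM in the Cfb-/- diabetic mice. All diabetic mice lay above the controls of their genotype, though the third Cfb-/- control mouse came close to the diabetic level. Cpt1b rose by 1.07 ± 0.17 (adjusted p = 0.00024) on the log2 scale (± SE) in WT mice and by 0.53 ± 0.17 (adjusted p = 0.0259) in Cfb-/- mice, and the second call was lost under 8 of 16 alternatives, including the omission of the first or the second Cfb-/- diabetic mouse or the first or the second Cfb-/- control mouse.

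Cpt1a, the main isoform here by level, ranged from 59.7 to 93.9 FPKM over all 14 mice, and its groups overlapped. Its differences were 0.12 in WT (95% interval -0.22 to 0.46) and -0.01 in Cfb-/- mice (95% interval -0.35 to 0.34). Cpt1b accordingly made up 5.21 to 8.24% of the summed Cpt1a and Cpt1b FPKM in WT control mice and 9.81 to 13.02% in WT diabetic mice, with no overlap. In the absence of Cfb the share was 6.39 to 10.4% for controls and 9.98 to 13.2% with diabetes, and these groups overlapped. Markers of skeletal and heart muscle (5 genes), where Cpt1b is abundant, summed to 0.0917 to 0.278 FPKM in control and 0.522 to 1.34 FPKM in diabetic mice, and their part in the result was not tested.

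Slc25a20, the translocase that carries acylcarnitines across the inner membrane, had 28.8, 30.3, and 27.1 FPKM in the WT control mice and 41.4, 45.6, 39.3, and 48.2 FPKM in the WT diabetic mice. In the other genotype it had 25.6, 23.5, and 29.5 FPKM in the Cfb-/- control mice and 30.02, 30.3, 33.4, and 38.5 FPKM in the Cfb-/- diabetic mice. Diabetic mice lay above controls in both genotypes. The rise was 0.60 ± 0.11 (adjusted p = 0.000795) in WT and 0.33 ± 0.11 (adjusted p = 0.0326) in Cfb-/- mice. Both calls were lost with median-ratio scaling (adjusted p = 0.0612 and 0.639), and the second under 7 of 16 alternatives, including the omission of the third or the fourth Cfb-/- diabetic mouse or the first or the second Cfb-/- control mouse.

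Cpt2, the inner-membrane enzyme that turns acylcarnitines back into acyl-CoA, had 68.1, 68.7, and 56.0 FPKM in the WT control mice and 82.8, 89.9, 82.8, and 93.6 FPKM in the WT diabetic mice. The enzyme had 58.4, 51.5, and 70.8 FPKM in the Cfb-/- control mice and 53.0, 54.8, 80.3, and 74.8 FPKM in the Cfb-/- diabetic mice. WT diabetic mice thus lay above all other mice, and the Cfb-/- groups overlapped. The difference was 0.44 ± 0.15 (adjusted p = 0.0282) in WT and 0.11 ± 0.15 (adjusted p = 0.594) in Cfb-/- mice. The WT call was lost under 5 of 16 alternatives, including the omission of the second or the fourth WT diabetic mouse or the third WT control mouse.

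**Figure D2:**
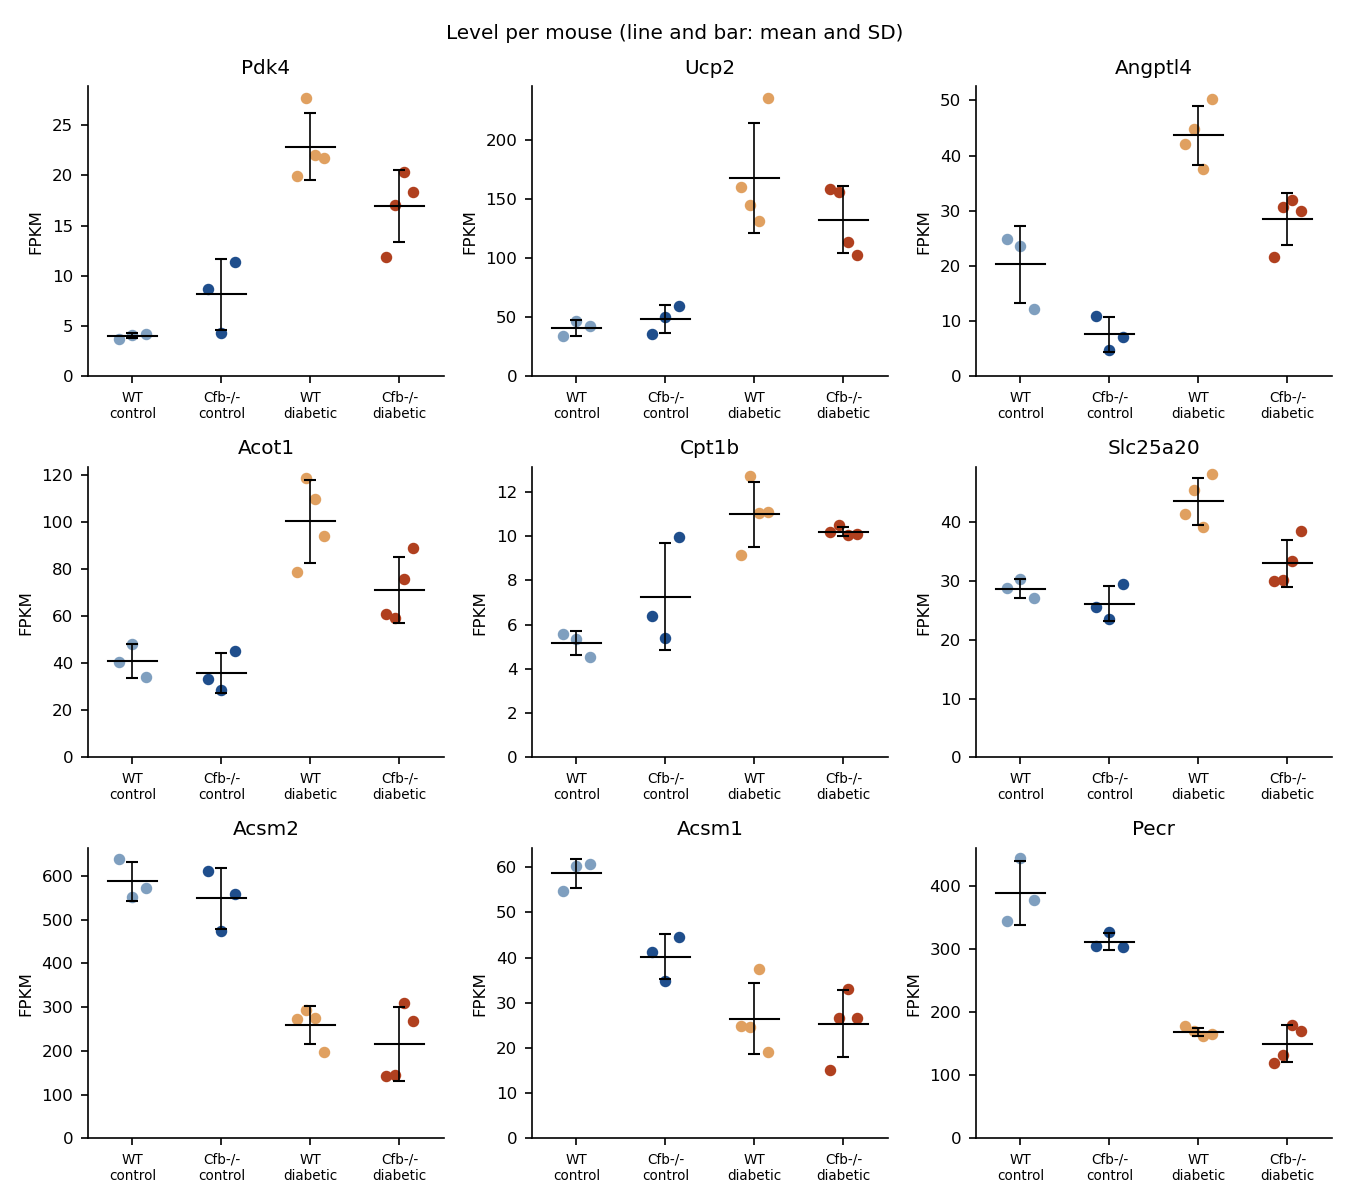
FPKM of 9 of the called genes in each mouse, by group, with the group mean (line) and SD (bar). Pdk4 was at 3.76 to 4.21 FPKM in WT control mice and 19.99 to 27.7 in WT diabetic mice, whereas Pecr went from 344 to 443 FPKM down to 162 to 178 in the same groups.

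Of the 9 core enzymes of the spiral, 2 rose and 3 fell in WT mice (36.2% and 9.97% of all genes). In Cfb-/- mice 1 rose and 2 fell (27.4% and 6.40%). Hadha and Hadhb, the alpha and beta subunits of the trifunctional protein that handles long chains, are neighbours on chromosome 5 and are read in opposite directions. Hadha lies on the minus strand at chr5:30119423-30154980 and Hadhb on the plus strand at chr5:30155253-30184593 (GRCm38.p6), which leaves a gap of 272 bases. The last 250 of these bases, up to the Hadhb start, are printed here from RefSeq (chr5:30155003-30155252, plus strand, 5′ to 3′) because they lie before the starts of both subunits.
Hadhb upstream: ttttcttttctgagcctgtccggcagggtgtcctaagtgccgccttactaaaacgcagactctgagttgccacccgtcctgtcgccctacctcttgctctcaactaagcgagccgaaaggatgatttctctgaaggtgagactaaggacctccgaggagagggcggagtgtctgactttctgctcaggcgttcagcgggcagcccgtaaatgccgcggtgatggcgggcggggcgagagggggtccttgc

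Hadha had 39.3, 36.8, and 35.8 FPKM in the WT control mice and 55.4, 62.5, 54.4, and 58.8 FPKM in the WT diabetic mice. It had 38.0, 33.9, and 47.2 FPKM in the Cfb-/- control mice and 52.1, 50.9, 60.4, and 56.2 FPKM in the Cfb-/- diabetic mice. The groups did not overlap in either genotype, and Hadha rose by 0.63 ± 0.11 (adjusted p = 0.000441) in WT and 0.48 ± 0.11 (adjusted p = 0.00379) in Cfb-/- mice. The second call was lost with median-ratio scaling (adjusted p = 0.147).

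Hadhb, the partner subunit, had 26.0, 24.0, and 23.1 FPKM in the WT control mice and 27.8, 36.6, 29.8, and 29.0 FPKM in the WT diabetic mice. Without Cfb it had 27.1, 24.5, and 31.4 FPKM in the Cfb-/- control mice and 28.5, 26.7, 32.0, and 31.4 FPKM in the Cfb-/- diabetic mice. The WT groups did not overlap and the Cfb-/- groups did. Hadhb rose by 0.33 ± 0.11 (adjusted p = 0.0303) in WT mice, a call lost under 6 of 16 alternatives (without the second WT diabetic, the second WT control, or the third WT control mouse among them), and differed by 0.10 ± 0.11 (adjusted p = 0.519) in Cfb-/- mice.

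Acads and Hadh were called lower in both genotypes. Acads, the acyl-CoA dehydrogenase of short chains, had 114, 159, and 129 FPKM in the WT control mice and 78.3, 87.1, 93.3, and 89.6 FPKM in the WT diabetic mice. It had 107, 104, and 114 FPKM in the Cfb-/- control mice and 72.8, 72.7, 79.95, and 82.5 FPKM in the Cfb-/- diabetic mice. Each diabetic mouse lay below each control mouse, and Acads fell, with a difference of -0.61 ± 0.11 (adjusted p = 0.000578) in WT and -0.50 ± 0.11 (adjusted p = 0.00309) in Cfb-/- mice. In bulk kidney RNA, fewer cells of a type and less RNA per cell cannot be told apart. The proximal tubule marker sum was lower in the same mice, though Aqp1 and Cubn overlapped in both genotypes and Lrp2 in WT mice. The part of the marker sum in the result was not tested.

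Hadh, the hydroxyacyl-CoA dehydrogenase of shorter chains, had 286, 338, and 303 FPKM in the WT control mice and 215, 236, 247, and 256 FPKM in the WT diabetic mice. It had 262, 246, and 269 FPKM in the Cfb-/- control mice and 181, 179.7, 226, and 217 FPKM in the Cfb-/- diabetic mice. Again no diabetic mouse reached a control of its genotype. The difference was -0.37 ± 0.11 (adjusted p = 0.0144) in WT and -0.37 ± 0.11 (adjusted p = 0.0181) in Cfb-/- mice. The WT call was lost under 3 of 16 alternatives, including the omission of the second WT control mouse, and the other under 5, including the omission of the first or the second Cfb-/- diabetic mouse or the first or the third Cfb-/- control mouse. Echs1, the short-chain hydratase, had 135 to 150.0 FPKM in WT control, 103 to 125 in WT diabetic, 127 to 131 in Cfb-/- control, and 95.3 to 121 in Cfb-/- diabetic mice. It fell in WT mice, with -0.33 ± 0.10 (adjusted p = 0.0146), a call lost without the second WT control mouse, and differed by -0.24 ± 0.10 (adjusted p = 0.0683) in Cfb-/- mice.

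The dehydrogenases of longer chains did not pass the test in either genotype. Acadm, of medium chains, differed by 0.02 ± 0.20 (adjusted p = 0.949) in WT and -0.52 ± 0.20 (adjusted p = 0.0638) in Cfb-/- mice. Acadl, of long chains, differed by 0.17 ± 0.14 (adjusted p = 0.321) and -0.23 ± 0.14 (adjusted p = 0.226), and Acadvl, of very long chains, by -0.11 ± 0.10 (adjusted p = 0.407) and -0.16 ± 0.10 (adjusted p = 0.256). The thiolase Acaa2, which releases acetyl-CoA, differed by -0.16 ± 0.13 (adjusted p = 0.327) and -0.12 ± 0.13 (adjusted p = 0.529). Some were called under alternatives. Acadm in Cfb-/- mice was called lower under 3 of 16, with median-ratio scaling or without the third Cfb-/- diabetic or the second Cfb-/- control mouse. Acadl was called higher in WT mice with quantile normalization and lower in Cfb-/- mice with median-ratio scaling. With median-ratio scaling Acadvl was called lower in both genotypes and Acaa2 in WT mice. With quantile normalization the direction of Acadvl in WT mice turned to 0.11.

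Unsaturated chains need the isomerases Eci1 and Eci2 and the reductase Decr1, and 0 of these 3 genes were called in either direction in WT or in Cfb-/- mice, with 0 at an unadjusted p under 0.05. By that rule 42.2% of all genes were higher and 12.2% lower in WT mice, and 34.8% and 8.74% in Cfb-/- mice. The log2 differences of the 3 genes ran from -0.03 to 0.22 in WT and from -0.03 to 0.03 in Cfb-/- mice. The electron transfer flavoprotein (Etfa, Etfb) and its oxidoreductase (Etfdh) pass the electrons on to the respiratory chain. Etfa had 249, 254, and 221 FPKM in the WT control mice and 182, 219, 211, and 197 FPKM in the WT diabetic mice. It had 237, 217, and 252 FPKM in the Cfb-/- control mice and 164, 150.1, 198, and 206 FPKM in the Cfb-/- diabetic mice. No diabetic mouse reached a control of its genotype, and Etfa differed by -0.25 ± 0.12 (adjusted p = 0.0976) in WT and fell in Cfb-/- mice, with -0.40 ± 0.12 (adjusted p = 0.0204). The Cfb-/- call was lost under 5 of 16 alternatives, among them the omission of the first or the second Cfb-/- diabetic mouse or the first or the third Cfb-/- control mouse. Etfb differed by -0.31 ± 0.16 (adjusted p = 0.116) and -0.17 ± 0.16 (adjusted p = 0.442), and Etfdh by -0.05 ± 0.15 (adjusted p = 0.814) and -0.24 ± 0.15 (adjusted p = 0.232).

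The synthetases of medium chains held the largest falls among mitochondrial genes. Acsm1, Acsm2, and Acsm3 join medium chains to coenzyme A and lie side by side on chromosome 7, with gaps of 17062 bases between Acsm2 and Acsm1 and 98367 bases between Acsm1 and Acsm3. No stretch of 125 bases of one transcript was found in another of the 3 genes, so that a read of that length can separate them. Acsm2 had 639, 553, and 573 FPKM in the WT control mice and 273, 294, 276, and 197 FPKM in the WT diabetic mice. It had 612, 474, and 559.9 FPKM in the Cfb-/- control mice and 143, 146, 309, and 268 FPKM in the Cfb-/- diabetic mice. Every diabetic mouse lay below every control mouse. Acsm2 fell to 0.438 of the control level in WT mice, with -1.19 ± 0.24 (adjusted p = 0.00148) on the log2 scale, and to 0.374 in Cfb-/- mice, with -1.42 ± 0.24 (adjusted p = 0.000495).

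Acsm1 had 54.8, 60.3, and 60.7 FPKM in the WT control mice and 24.8, 24.6, 37.5, and 19.0 FPKM in the WT diabetic mice. Without Cfb it had 41.2, 34.8, and 44.6 FPKM in the Cfb-/- control mice and 15.1, 26.6, 33.1, and 26.7 FPKM in the Cfb-/- diabetic mice. It fell in both genotypes, with -1.18 ± 0.24 (adjusted p = 0.00126) in WT and -0.71 ± 0.24 (adjusted p = 0.0318) in Cfb-/- mice. The latter call was lost under 4 of 16 alternatives, including the omission of the first Cfb-/- diabetic, the first Cfb-/- control, or the third Cfb-/- control mouse.

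Acsm3 had 158, 133, and 91.7 FPKM in the WT control mice and 69.2, 102, 123, and 91.0 FPKM in the WT diabetic mice. It had 167, 93.9, and 223 FPKM in the Cfb-/- control mice and 54.3, 47.0, 89.3, and 99.4 FPKM in the Cfb-/- diabetic mice. Groups overlapped in both genotypes, and the third Cfb-/- control mouse held the highest value. Acsm3 differed by -0.40 ± 0.32 (adjusted p = 0.309) in WT mice and fell by the test in Cfb-/- mice, with -1.14 ± 0.32 (adjusted p = 0.0123), a call lost without the third Cfb-/- control mouse (adjusted p = 0.0675). The 3 synthetases together made up 14.2 to 17.9% of the members' summed FPKM in control mice and 6.65 to 10.1% in diabetic mice. The long-chain synthetase Acsl1 was at 16.9 to 34.2 FPKM in control and 19.4 to 40.3 FPKM in diabetic mice and did not pass the test.

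The thioesterases Acot1, of the cytosol, and Acot2, of the mitochondrial matrix, split acyl-CoA back into free fatty acid. They lie 15624 bases apart on chromosome 12. Acot1 had 40.3, 48.2, and 33.9 FPKM in the WT control mice and 78.9, 119, 109.6, and 93.9 FPKM in the WT diabetic mice. It had 33.5, 28.7, and 45.1 FPKM in the Cfb-/- control mice and 60.8, 59.1, 75.9, and 88.8 FPKM in the Cfb-/- diabetic mice. No control mouse reached a diabetic mouse. The rise was 2.45-fold in WT mice, with 1.29 ± 0.19 (adjusted p = 0.000138) on the log2 scale, and 1.99-fold in Cfb-/- mice, with 0.996 ± 0.19 (adjusted p = 0.0011).

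Acot2 had 11.7, 12.9, and 11.1 FPKM in the WT control mice and 20.1, 22.3, 21.7, and 22.5 FPKM in the WT diabetic mice. Its level was 9.93, 8.30, and 11.4 FPKM in the Cfb-/- control mice and 14.5, 17.5, 18.0, and 18.1 FPKM in the Cfb-/- diabetic mice. The groups were again apart, and Acot2 rose by 0.86 ± 0.12 (adjusted p = 7.26e-05) in WT and 0.78 ± 0.12 (adjusted p = 0.000163) in Cfb-/- mice. Of the 125-base stretches of Acot1 transcripts, 284 of 2184 (13%) also occur in Acot2, so that the split between them is uncertain. Their sum was 37.0 to 61.1 FPKM in control and 75.2 to 141 FPKM in diabetic mice. It is not wholly free of this split, since FPKM divides by transcript length. Acot3, outside the sum, shares 3.62% of the Acot1 stretches.

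Among the 11 peroxisomal genes 0 rose at an adjusted p under 0.05 in either genotype (limma), while 2 fell in WT mice and 3 in Cfb-/- mice. Among all genes 36.2% rose and 9.97% fell in WT mice, and 27.4% and 6.40% in Cfb-/- mice. At an unadjusted p under 0.05, 1 was higher in WT mice (42.2% of all genes) and 0 in Cfb-/- mice (34.8%). Pecr, which reduces enoyl-CoA and so serves chain elongation rather than breakdown, had 344, 443, and 377 FPKM in the WT control mice and 178, 169, 162, and 165 FPKM in the WT diabetic mice. It had 304, 326, and 303 FPKM in the Cfb-/- control mice and 119, 133, 179, and 169 FPKM in the Cfb-/- diabetic mice. Diabetic and control values were far apart. Pecr fell to 0.436 of control in WT mice (-1.20 ± 0.14 on the log2 scale, adjusted p = 2.11e-05) and to 0.475 in Cfb-/- mice (-1.07 ± 0.14, adjusted p = 5.08e-05).

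The thiolases Acaa1a and Acaa1b end each peroxisomal turn and are close copies on chromosome 9, 183934 bases apart. Acaa1a had 58.7, 77.0, and 77.4 FPKM in the WT control mice and 44.1, 48.1, 47.3, and 52.5 FPKM in the WT diabetic mice. It had 52.1, 55.9, and 49.3 FPKM in the Cfb-/- control mice and 46.9, 44.5, 47.7, and 44.7 FPKM in the Cfb-/- diabetic mice. WT control mice stood above all others. Acaa1a fell in WT mice, with -0.56 ± 0.10 (adjusted p = 0.000769), and differed by -0.19 ± 0.10 (adjusted p = 0.177) in Cfb-/- mice. Acaa1b differed by -0.12 ± 0.13 (adjusted p = 0.468) and -0.04 ± 0.13 (adjusted p = 0.847). Of the 125-base stretches, 11.6% of Acaa1a and 17.4% of Acaa1b occur in the other gene, and the summed level was 127 to 162 FPKM in WT control, 107 to 128 in WT diabetic, 99.6 to 115 in Cfb-/- control, and 94.5 to 108 FPKM in Cfb-/- diabetic mice.

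Acox3, an oxidase of branched chains, had 38.6, 25.0, and 31.8 FPKM in the WT control mice and 26.7, 24.8, 25.7, and 23.9 FPKM in the WT diabetic mice. Without Cfb it had 37.1, 33.4, and 38.7 FPKM in the Cfb-/- control mice and 18.0, 19.2, 27.0, and 24.8 FPKM in the Cfb-/- diabetic mice. The Cfb-/- groups were apart and the WT groups overlapped. Acox3 differed by -0.31 ± 0.15 (adjusted p = 0.111) in WT and fell in Cfb-/- mice, with -0.72 ± 0.15 (adjusted p = 0.00229).

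Abcd3, which imports fatty acids into the peroxisome, had 114, 88.5, and 94.9 FPKM in the WT control mice and 98.8, 112, 97.5, and 92.4 FPKM in the WT diabetic mice. It had 117, 110.1, and 136 FPKM in the Cfb-/- control mice and 76.1, 76.8, 106, and 102 FPKM in the Cfb-/- diabetic mice. Only the Cfb-/- groups were apart. It differed by 0.02 ± 0.14 (adjusted p = 0.913) in WT mice and fell in Cfb-/- mice, with -0.44 ± 0.14 (adjusted p = 0.0249), a call lost under 6 of 16 alternatives, among them the omission of the first or the second Cfb-/- diabetic mouse or the first or the third Cfb-/- control mouse. The other peroxisomal genes were not called. Acox2 and the bifunctional enzymes Ehhadh and Hsd17b4 carry out earlier steps, Crot makes medium-chain carnitine esters, Pex11a drives division, and Cat removes peroxide. Ehhadh gave 0.37 ± 0.25 (adjusted p = 0.227) in WT and -0.37 ± 0.25 (adjusted p = 0.26) in Cfb-/- mice.

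The fuel-sensing genes held the largest rises among the members, Pdk4 and Ucp2 in WT mice and Angptl4 and Ucp2 in Cfb-/- mice. Pdk4 inhibits pyruvate dehydrogenase and so turns cells from glucose to fat. Pdk4 had 3.76, 4.16, and 4.21 FPKM in the WT control mice and 19.99, 27.7, 22.1, and 21.7 FPKM in the WT diabetic mice. It had 8.74, 4.35, and 11.4 FPKM in the Cfb-/- control mice and 11.9, 17.1, 20.3, and 18.4 FPKM in the Cfb-/- diabetic mice. Diabetic mice lay above controls, and the Cfb-/- control mice lay above the WT control mice. The rise was 5.51-fold in WT mice, with 2.46 ± 0.25 (adjusted p = 1.13e-05) on the log2 scale, and 2.18-fold in Cfb-/- mice, with 1.12 ± 0.25 (adjusted p = 0.00368).

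Ucp2, a carrier of the inner mitochondrial membrane, had 33.8, 47.0, and 42.2 FPKM in the WT control mice and 161, 145, 131, and 236 FPKM in the WT diabetic mice. It stood at 35.8, 49.9, and 59.9 FPKM in the Cfb-/- control mice and 158, 156, 114, and 103 FPKM in the Cfb-/- diabetic mice. No groups of different disease state overlapped. Ucp2 rose by 2.01 ± 0.22 (adjusted p = 1.79e-05) in WT and 1.46 ± 0.22 (adjusted p = 0.0002) in Cfb-/- mice. Ucp2 is also abundant in macrophages, whose 4 markers summed to 23.2 to 34.8 FPKM in control and 70.9 to 119 FPKM in diabetic mice, and the part of these cells in the result was not tested.

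Angptl4, a secreted inhibitor of lipoprotein lipase, had 25.0, 23.7, and 12.2 FPKM in the WT control mice and 42.0, 44.8, 37.6, and 50.3 FPKM in the WT diabetic mice. It had 10.9, 4.70, and 7.19 FPKM in the Cfb-/- control mice and 21.6, 30.7, 32.0, and 29.9 FPKM in the Cfb-/- diabetic mice. The order of the genotypes was the reverse of that for Pdk4 in control mice. Angptl4 rose by 1.16 ± 0.27 (adjusted p = 0.00328) in WT and 1.96 ± 0.27 (adjusted p = 8.9e-05) in Cfb-/- mice. Fat cells express Angptl4 strongly, and the 4 adipocyte markers summed to 0 to 0.0692 FPKM in WT control, 1.25 to 5.20 in WT diabetic, 0 to 3.43 in Cfb-/- control, and 0.102 to 0.386 in Cfb-/- diabetic mice. Their part in the result was not tested. Plin1 and Lep were at 0 in all WT control and all Cfb-/- diabetic mice.

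Fabp1, which carries fatty acids in the cytosol, was the least abundant member. It had 0.472, 1.11, and 1.48 FPKM in the WT control mice and 2.63, 1.67, 1.62, and 2.23 FPKM in the WT diabetic mice. It had 0.120, 0.326, and 1.03 FPKM in the Cfb-/- control mice and 0.305, 1.30, 1.97, and 1.23 FPKM in the Cfb-/- diabetic mice. Diabetic WT mice lay above WT controls and the Cfb-/- groups overlapped, and Fabp1 differed by 1.02 ± 0.56 (adjusted p = 0.147) and 1.24 ± 0.56 (adjusted p = 0.104). Its promoter is shown because it alone, of the 36 members with a promoter sequence in the RefSeq table, held the direct repeat AGGNCANAGGNCA, the kind of element that PPARα binds with its partner RXR. The window runs from 250 bases before to 50 bases after the start, both strands were read, and 122 of 27025 genes (0.451%) held the repeat. The match, in capitals, reads as the repeat on the opposite strand and lies 67 to 55 bases before the start. The whole printed stretch is chr6:71199782-71199854 (plus strand, GRCm38.p6).
Fabp1 promoter: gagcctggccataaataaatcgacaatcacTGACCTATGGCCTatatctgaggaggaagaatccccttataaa

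The shorter hexamer AGGTCA, which the repeat can contain, was found for 7 of 36 members (19.4%) and for 18.1% of all genes, and CCAAT for 19 of 36 (52.8%) and 41.1%. A match describes letters and not binding. Bdh1, the ketone gene, which interconverts acetoacetate and beta-hydroxybutyrate, was at 28.7 to 53.6 FPKM in control and 27.7 to 41.6 FPKM in diabetic mice. It was not called, with -0.34 ± 0.20 (adjusted p = 0.183) in WT and -0.10 ± 0.20 (adjusted p = 0.725) in Cfb-/- mice.

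A further 43 genes of lipid uptake, activation, ketogenesis, and control were measured, and all 43 passed the filter. In WT mice 11 rose and 14 fell (36.2% and 9.97% of all genes), with a median of -0.14 against 0.29 over all genes. In Cfb-/- mice 6 rose and 13 fell (27.4% and 6.40%), with a median of -0.24 against 0.22. Acot3, a peroxisomal thioesterase that shares 3.62% of the 125-base stretches of Acot1, rose by 1.501 ± 0.20 (adjusted p = 7.65e-05) in WT and 1.11 ± 0.20 (adjusted p = 0.000846) in Cfb-/- mice. Another thioesterase of the cytosol, Acot12, named after its values had been seen, fell, with -0.53 ± 0.19 (adjusted p = 0.0377) and -1.04 ± 0.19 (adjusted p = 0.000916). Cpt1c, the carnitine palmitoyltransferase relative of neurons, rose by 1.83 ± 0.31 (adjusted p = 0.000371) and 1.94 ± 0.31 (adjusted p = 0.000281) from 0.195 to 0.425 FPKM in control mice, and Hacl1, a peroxisomal lyase of alpha-oxidation, by 1.14 ± 0.27 (adjusted p = 0.00394) and 0.97 ± 0.27 (adjusted p = 0.0124). Amacr, the racemase that prepares branched chains for peroxisomes, fell to 0.389 of control in WT and 0.39 in Cfb-/- mice (adjusted p = 4.18e-06 and 4.67e-06). Among receptors, Ppard fell, with -1.23 ± 0.28 (adjusted p = 0.003) and -1.46 ± 0.28 (adjusted p = 0.00113). Pparg, at 0.172 to 1.012 FPKM over all mice, rose in WT mice by 1.24 ± 0.24 (adjusted p = 0.00117) and differed by 0.37 ± 0.24 (adjusted p = 0.269) in Cfb-/- mice. The fatty acid receptor Cd36 differed by -0.41 ± 0.22 (adjusted p = 0.14) in WT and fell in Cfb-/- mice, with -1.19 ± 0.22 (adjusted p = 0.000909).

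The second comparison set Cfb-/- against WT mice with diabetes. By limma 0 of 41 members passed an adjusted p under 0.05 in either direction, as 0.00671% of all genes did lower and 0 higher. Their log2 fold changes nevertheless lay below 0 in 39 of 41 members, against 39.1% of all genes, and the exceptions were Bdh1 and Acox2. At an unadjusted p under 0.05, 14 of 41 members were lower (1.67% of all genes) and 0 higher (1.33%). Median log2 fold changes were -0.26 for the mitochondrial, -0.20 for the peroxisomal, and -0.54 for the fuel-sensing genes, and 0.04 for all genes. Neighbouring steps of a pathway share cells and mice, so that these counts are not a count of independent results.

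The 4 Cfb-/- diabetic mice lay wholly below the 4 WT diabetic mice for 9 of 41 members (0.885% of all genes). For 0 members did they lie wholly above (1.86%). The 9 were Cpt2, Slc25a20, Acaa2, Eci2, Etfb, Acot2, Angptl4, Acaa1b, and Pex11a, and were named after their values had been seen. Cpt2 had 53.0, 54.8, 80.3, and 74.8 FPKM in Cfb-/- diabetic mice against 82.8, 89.9, 82.8, and 93.6 in WT diabetic mice, a difference of -0.43 ± 0.14 (unadjusted p = 0.00853, adjusted p = 1). Slc25a20 differed by -0.40 ± 0.10 (unadjusted p = 0.0016, adjusted p = 1), and Acot2 by -0.35 ± 0.11 (unadjusted p = 0.00556, adjusted p = 1).

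Cpt2 and Slc25a20 bring chains into the mitochondrial matrix and Acot2 releases them there. The thiolase Acaa2 had 74.4, 77.9, 108, and 88.4 FPKM in Cfb-/- diabetic and 116, 128, 109, and 119 FPKM in WT diabetic mice, a difference of -0.45 ± 0.12 (unadjusted p = 0.00235, adjusted p = 1). Pex11a, which divides peroxisomes, had 14.8, 14.5, 19.7, and 21.3 FPKM against 24.1, 25.3, 22.8, and 23.3 FPKM, a difference of -0.46 ± 0.13 (unadjusted p = 0.00295, adjusted p = 1). Angptl4 differed by -0.62 ± 0.25 (unadjusted p = 0.0249, adjusted p = 1). The 4 adipocyte markers summed to 1.25 to 5.20 FPKM in WT diabetic and 0.102 to 0.386 FPKM in Cfb-/- diabetic mice, without overlap, and their part in the difference of Angptl4 was not tested.

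The first and second Cfb-/- diabetic mice held the lowest values of all 14 mice for Acadm at 217 and 221 FPKM, Ehhadh at 133 and 136 FPKM, and Cat at 269 and 261 FPKM. The summed FPKM of the members was 3194, 3190, 4251, and 4097 in the Cfb-/- diabetic mice and 4019 to 4587 in the WT diabetic mice. The proximal tubule markers summed to 1170, 1258, 2007, and 1957 FPKM in the same Cfb-/- mice and 1406 to 1942 in WT diabetic mice, and their part in the result was not tested. Without the first Cfb-/- diabetic mouse 38 of 41 members lay below 0 and 8 were lower at an unadjusted p under 0.05. Without the second the counts were 39 and 12. Over all genes, both directions together, 448 of 14912 passed that p with all mice, 302 without the first mouse, and 295 without the second. Leaving out a mouse cannot make separate groups overlap, so the 9 genes without overlap had to remain without the first or the second mouse. Their persistence is therefore no check on these mice. No further members joined the 9 in either case. Of all genes, 0.885% lay wholly lower with all mice, 1.75% without the first, and 1.502% without the second. Over all mice left out in turn, 38 to 41 members lay below 0, and the count without overlap was 18 without the first WT diabetic mouse (3.36% of all genes) and 15 without the third Cfb-/- diabetic mouse (1.74%). With each mouse scaled to the same total without Kap, 38 lay below 0 and 7 did not overlap (0.57% of all genes).

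**Figure D3:**
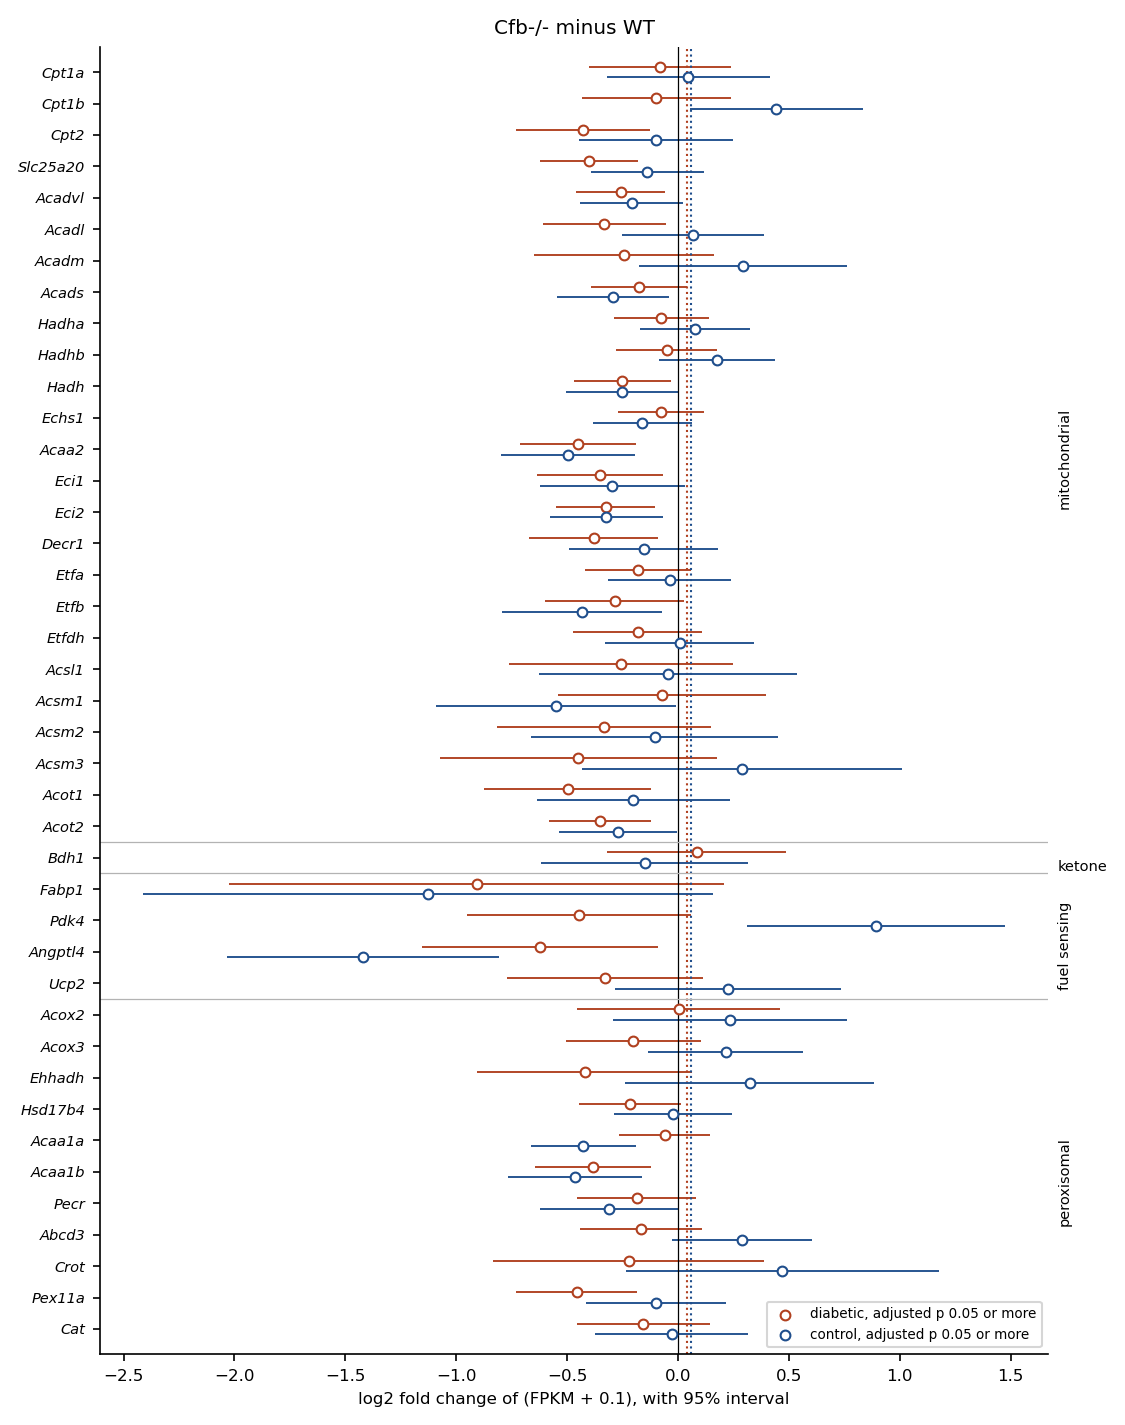
Log2 fold change on the log2(FPKM + 0.1) scale in Cfb-/- against WT mice for the 41 genes (rows), among diabetic and among control mice, with 95% intervals from limma. Open points did not pass an adjusted p under 0.05, which holds for all members, and dotted lines mark the medians of all genes, 0.04 and 0.06. Among diabetic mice 39 of the 41 points lie left of 0.

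**Figure D4:**
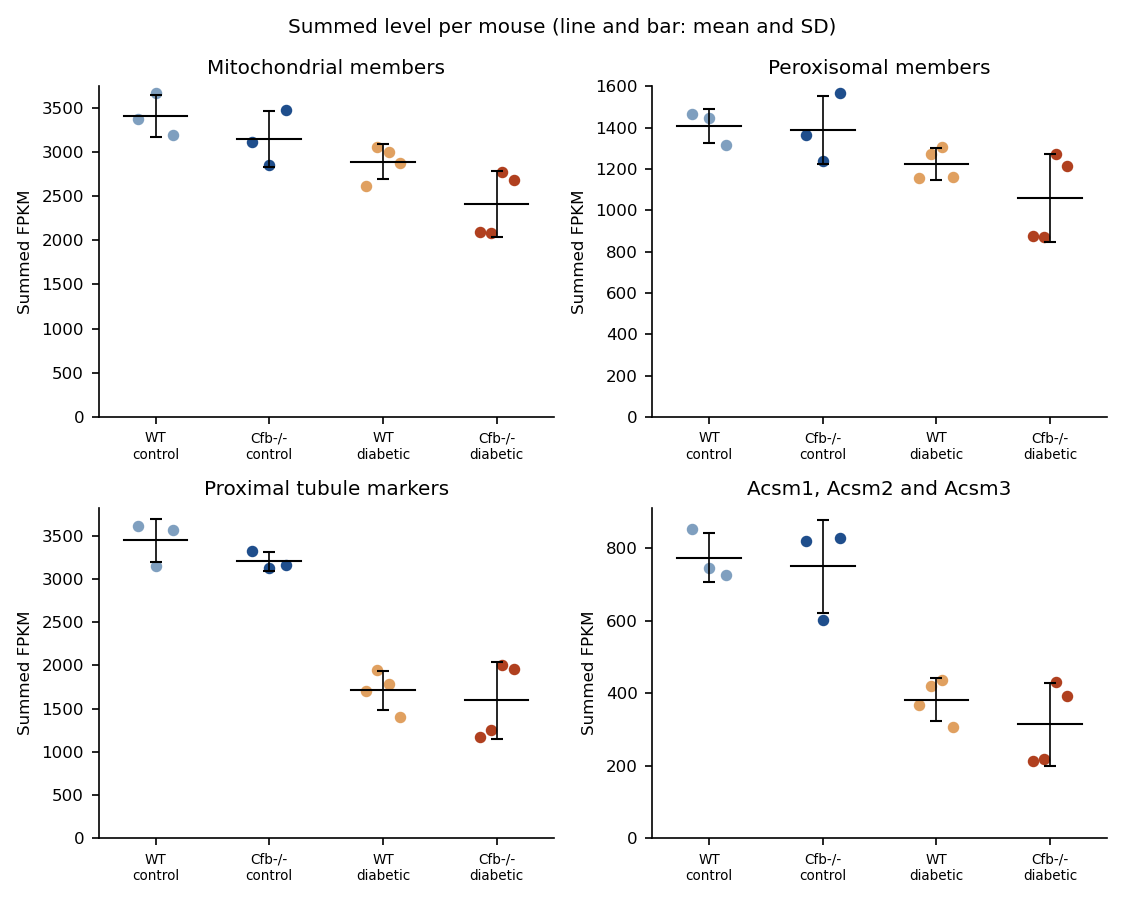
Summed FPKM per mouse of the mitochondrial members (25 genes), the peroxisomal members (11 genes), the proximal tubule markers (10 genes), and Acsm1 to Acsm3, by group, with the group mean (line) and SD (bar). The first and second Cfb-/- diabetic mice are the lowest in all 4 panels, with 2090 and 2081 FPKM for the mitochondrial genes against 2612 to 3054 FPKM in WT diabetic mice.

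Among control mice 0 of 41 members were called by limma in either direction, as for 0 of all genes higher and 0.00671% lower. At an unadjusted p under 0.05, 11 members were lower (7.67% of all genes) and 2 higher (9.86%), namely Cpt1b and Pdk4. Log2 fold changes lay below 0 in 26 of 41 members (42.9% of all genes), with a median of -0.10. This direction depended on scaling, since 15 of 41 lay below 0 and the median was 0.07 with each mouse scaled to the same total without Kap, and 20 lay below 0 with a median of 0.01 without the second Cfb-/- control mouse. The 11 members lower at an unadjusted p under 0.05 became 4 without the first Cfb-/- or without the second WT control mouse. They became 7 without the second Cfb-/- control mouse and 6 with quantile normalization. A fit of the compared groups alone gave 5, and the scaling without Kap 3. Over all genes, both directions together, 2614 of 14912 passed this rule with all mice. The number was 1819 without the first Cfb-/- and 1007 without the second WT control mouse. It was 3513 without the second Cfb-/- control mouse and 2102 with quantile normalization. The fit of the compared groups alone gave 1258, and the scaling without Kap 3600. Groups did not overlap for 9 members that were lower (7.12% of all genes), which were Acadvl, Hadh, Echs1, Acaa2, Acsm1, Angptl4, Acaa1a, Acaa1b, and Pecr, and for 1 that was higher, Pdk4 (6.67%). The 9 became 16 without the third Cfb-/- control mouse (9.76% of all genes) and 4 with the scaling without Kap (2.70%).

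Angptl4 showed the largest difference by size among control mice. It had 10.9, 4.70, and 7.19 FPKM in Cfb-/- and 25.0, 23.7, and 12.2 FPKM in WT control mice, a difference of -1.42 ± 0.29 (unadjusted p = 0.000199, adjusted p = 0.19). It was the 1 member past the study's rule here (0.221% of all genes lower). It was called without the first WT control mouse or without the first Cfb-/- control mouse, with an adjusted p from 0.0325 to 0.622 over its alternatives. Pdk4 had 8.74, 4.35, and 11.4 FPKM in Cfb-/- and 3.76, 4.16, and 4.21 FPKM in WT control mice, a difference of 0.89 ± 0.27 (unadjusted p = 0.00539, adjusted p = 0.244), and was called without the second Cfb-/- control mouse (adjusted p = 0.0405). For 3 mice against 3 an exact permutation test cannot go below 0.1. The first Cfb-/- control mouse also held 6.75 FPKM of the 3 brown adipocyte markers and 3.43 FPKM of the 4 adipocyte markers, the highest sums among control mice.

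Whether diabetes changed the members differently in both genotypes was tested by the interaction, and 0 of 41 members or of all genes were called by limma. At an unadjusted p under 0.05, 4 members had a lower log2 fold change with diabetes in Cfb-/- than in WT mice (2.92% of all genes). Cpt1b and Pdk4 rose less, while Ehhadh and Abcd3 lay above 0 in WT and below 0 in Cfb-/- mice. In the other direction was 1 member, Acaa1a, with a smaller fall in Cfb-/- mice (2.86% of all genes). The count of 4 became 8 without the first WT or the second Cfb-/- control mouse or with the scaling without Kap. It became 1 with median-ratio scaling or without any 1 of the first Cfb-/- diabetic, the second Cfb-/- diabetic, the second WT diabetic, the third Cfb-/- control, or the third WT control mouse, and 2 without the third WT diabetic or the second WT control mouse. The count of 1 in the other direction was 0 to 3 with a mouse left out. Over all genes, both directions together, 861 of 14912 passed this rule with all mice. The number was 2596 without the first WT and 1375 without the second Cfb-/- control mouse, and 794 with the scaling without Kap. In the settings that took the 4 to 1 it was 494 to 875, and in those that took it to 2, 630 to 664. Pdk4 gave -1.34 ± 0.36 (unadjusted p = 0.0022, adjusted p = 0.73), Ehhadh -0.74 ± 0.35 (unadjusted p = 0.0495, adjusted p = 0.779), and Acaa1a 0.37 ± 0.15 (unadjusted p = 0.0249, adjusted p = 0.779). Members called in one genotype and not in the other, such as Cpt2, Acsm3, Acox3, and Abcd3, are therefore not shown to respond differently.

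The last values set the summed members against the proximal tubule markers. The ratio of the members' summed FPKM to that of the 10 markers was 1.29 to 1.66 in WT control, 1.34 to 1.64 in Cfb-/- control, 2.35 to 3.12 in WT diabetic, and 2.09 to 2.73 in Cfb-/- diabetic mice. The groups of different disease state did not overlap in this ratio. The members' own sum was not higher with diabetes. It was 4595 to 5243 FPKM in WT control and 4019 to 4587 in WT diabetic mice. Without Cfb it was 4176 to 5171 FPKM in control and 3190 to 4251 in diabetic mice. Slc34a1, the phosphate transporter, made up 42.6 to 56.5% of the marker sum in control mice and 36.0 to 47.5% in diabetic mice. Against the sum without Slc34a1 the ratio was 2.63 to 3.31 in WT control, 2.68 to 2.85 in Cfb-/- control, 3.75 to 5.70 in WT diabetic, and 3.29 to 4.54 in Cfb-/- diabetic mice. Against each marker alone, diabetic mice lay wholly above controls for 7 of 10 markers in WT and 8 of 10 in Cfb-/- mice. These were the same markers whose own level lay wholly lower in diabetic mice, so that the higher ratios go with lower denominators. The ratios overlapped for the water channel Aqp1 and the endocytic receptor Cubn in both genotypes and for its partner Lrp2 in WT mice, and against Aqp1 the ratio was 14.9 to 18.4 in WT control and 9.36 to 16.5 in WT diabetic mice. Acsm1 to Acsm3 summed to 725 to 852 FPKM in WT control and 307 to 437 in WT diabetic mice, and in the same groups the markers summed to 3156 to 3619 and 1406 to 1942 FPKM.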

How the data were processed

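Per the labels, RNA of 14 kidneys was made into stranded mRNA libraries, and the submitters' processing notes name Trimmomatic, HISAT2, Cufflinks, HTSeq, and DESeq and the build GRCm38.p6, with no versions. What the authors deposited is an FPKM value for each of 21878 genes, named by NCBI symbol, in each mouse. Groups were taken from the sample titles. Depth in reads is unknown, so that no counting interval is given. Nothing says that mice of a group came from separate cages or litters. The p-values weigh a difference of group means against the spread between these mice, pooled over the groups.

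The 14912 genes that reached 0.1 FPKM in 3 mice or more were tested on log2(FPKM + 0.1). The tool was limma 3.58.1 (R 4.3.3) with its trend option, fitted to all 14 mice with 1 mean for each group. Fold changes on this scale understate changes of low genes. Adjusted p is Benjamini-Hochberg over all genes tested, and called means under 0.05. The members, gene lists, and tests were chosen with earlier results of these data known. Named with values per mouse by rule were the 20 called members with the largest change between diabetic and control mice. Outside this rule, values per mouse were given for Fabp1, which was not called, and for Acaa2 and Pex11a in diabetic mice. Of the other genes the first 8 in the same order were named. Alternatives were other pseudocounts (1, 0.01), other filters, median-ratio scaling, quantile normalization, a replicate block, the compared groups alone, each mouse left out, and, added after seeing the data, a scaling to the total without Kap and the ratio to each proximal tubule marker. Positions and promoters are from RefSeq (GRCm38.p6). Shared 125-base stretches were counted in GENCODE transcripts of GRCm38. Figures were drawn with matplotlib 3.10.9. A gene of the wider pathway list that the naming rule would give is not reported here.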

Additional observations from a re-analysis of the deposited data

Results flagged for a closer look

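Of 82 groups of 4 mice tested over the members, 1 held a mouse far from the others. Etfdh, the oxidoreductase that passes electrons from the electron transfer flavoprotein to the respiratory chain, was at 80.1 FPKM in the second WT diabetic mouse and at 69.2 to 71.0 FPKM in the other WT diabetic mice. The gap made up 0.834 of the group's range, which is above Dixon's 95% critical value for 4 values. By chance about 1 in 20 groups is marked in this way.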

How the results depend on the processing

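In the comparison of diabetic with control mice, members called with median-ratio scaling were 7 higher and 13 lower in WT mice. In Cfb-/- mice they were 5 higher and 15 lower. Over all 14912 genes this scaling called 3391 higher and 3347 lower in WT, and 2761 and 2101 in Cfb-/- mice. Without it the numbers were 5392 and 1487 in WT and 4083 and 955 in Cfb-/- mice. The scaling without Kap called 13 and 5 members in WT (7023 and 840 of all genes). In Cfb-/- mice it called 8 and 7 (4306 and 750). With quantile normalization members called were 11 higher and 5 lower in WT and 7 and 6 in Cfb-/- mice. Over all genes it called 2366 higher and 2992 lower in WT, and 2146 and 2228 in Cfb-/- mice. The log2 difference of Acadvl in WT mice turned from -0.11 to 0.11 with this normalization. With each mouse left out in turn the member counts were 8 to 11 higher and 6 to 8 lower in WT mice. In Cfb-/- mice they were 6 to 9 higher and 4 to 10 lower. There 9 lower became 5 without the first Cfb-/- diabetic mouse, 5 without the first Cfb-/- control mouse, and 4 without the third Cfb-/- control mouse. Over all genes these fits called 3715 to 5674 higher and 1060 to 1829 lower in WT mice. In Cfb-/- mice they called 2964 to 4101 higher and 702 to 966 lower. Without the mice just named, in the same order, 702, 710, and 763 of all genes were lower. Called under every one of 16 alternatives were 7 of 10 higher members and 5 of 7 lower members in WT mice, and 5 of 8 and 4 of 9 in Cfb-/- mice. Between the genotypes 0 members were called among diabetic mice under any alternative. Among control mice with a mouse left out, 0 to 1 were called higher and 0 to 6 lower. The 6 were Acaa1a, Acaa1b, Acaa2, Acads, Etfb, and Angptl4, without the first WT control mouse, where 945 of all 14912 genes were called higher and 766 lower, against 0 and 1 with all mice. For the interaction 0 members were called under any alternative. The cause of these changes was not tested. Mice with the same replicate number did not deviate together (19 pairs, correlations of -0.388 to 0.243, 3 over 0.1). With the replicate number as a block 8 members were higher and 7 lower in WT mice and 6 higher and 9 lower in Cfb-/- mice. Over all genes the block gave 4900 higher and 1378 lower in WT, and 3609 and 854 in Cfb-/- mice. Depth in reads is unknown, so that levels near 0, such as Fabp1, have no stated precision.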
